A study of Mus musculus with 12 samples.

Results

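The enzymes described here convert threonine and serine to glycine and feed the folate-bound carbon units that cells use for nucleotides and methylation. They were chosen by name from the pathway, with no measured value in the rule, and the gene IDs of the count table were matched to symbols through the GENCODE mouse annotation. All 10 were found, out of 51467 genes in the table: the threonine enzymes Tdh and Gcat, the glycine cleavage gene Gldc, the serine hydroxymethyltransferases Shmt1 and Shmt2, the folate enzymes Mthfd1, Mthfd2 and Mthfd1l, and the serine synthesis enzymes Psat1 and Phgdh. All 10 passed the filter on low counts in both kinds of RNA.

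Mouse embryonic stem cells (ESCs), held in the naive state by LIF and a pair of kinase inhibitors (PD0325901 and CHIR99021, together called 2i) in serum-containing medium, were compared with epiblast-like cells (EpiLCs) that had spent about 56 h without LIF and 2i. Every culture received 500 µM of the uridine analogue 4-thiouridine (4sU) for 30 min before lysis, so the label was shared by all groups. Total RNA was sequenced after ribosomal RNA depletion, and RNA made during the pulse was captured by its label (4sU RNA, called nascent here), with 3 libraries of each cell type for each kind of RNA, 12 in all. The labels name neither a genotype nor a cell line; the study's methods describe a fluorescent microRNA reporter line for this differentiation.

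Threonine dehydrogenase (TDH) and the ligase encoded by Gcat work in sequence in mitochondria and split threonine into glycine and acetyl-CoA, and mouse ESCs are known for high TDH activity and for their dependence on threonine. Glycine is then opened by the glycine cleavage system, of which GLDC is the decarboxylase, while SHMT2 in mitochondria and SHMT1 in the cytosol take the same carbon from serine. The carbon is carried on tetrahydrofolate and changed in oxidation state by the MTHFD enzymes, of which MTHFD2 and MTHFD1L are mitochondrial and MTHFD1 is cytosolic. PHGDH and PSAT1 make serine from a glycolytic intermediate.

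Total libraries held 9300845 to 21975684 reads in genes and 4sU libraries 3097693 to 5385644, so the nascent values carry the larger counting error. The labeled cell types matched their markers: the summed level of 7 naive genes was 3330 to 3670 CPM (reads of a gene scaled to a common library total) in ESC total libraries and 316 to 327 in EpiLC, and that of 5 formative genes was 262 to 306 and 1570 to 1900. Fibroblast genes summed to 3.90 to 4.76 CPM in ESC total libraries and 14.6 to 19.0 in EpiLC. Of the 6 genes, 3 were tested and 2, Col1a2 and Dcn, were called higher. Dcn had 0 reads in the ESC libraries, Lum had 0 in the EpiLC total libraries, and the part of such cells in the results was not tested. Summed levels in ESC and EpiLC total libraries were 3.2 to 8.0 and 5.90 to 6.19 CPM for 4 primitive endoderm genes and 10.5 to 25.4 and 19.9 to 30.2 CPM for 4 mesendoderm genes. Of the primitive endoderm genes 2 were tested, with 1 called higher and 1 lower in total RNA. Of the mesendoderm genes 3 were tested and 2 were called higher. The mesendoderm sum in 4sU RNA was 17.7 to 27.7 CPM in ESCs and 43.5 to 95.9 in EpiLCs. ESC replicate 3 stood apart in both kinds of RNA: its counts differed from those of the other ESC total libraries by a chi-square of 27.6 and 28.3 per degree of freedom, against 2.54 between replicates 1 and 2. In ESC 4sU RNA the chi-square was 10.9 and 8.72 against 4.90. It grows with read depth, which was lower there, so it cannot be compared between the kinds of RNA. Values are also given without both ESC replicate 3 libraries.

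Some of these genes have near-identical copies, and reads that fit several places were dropped before counting. Of the 50-base stretches of the Phgdh transcript, the length of the reads, 63.1% also occur in an annotated transcript elsewhere, spread over 23 genes of which 20 are pseudogenes. For Tdh the share was 15.0%, all from the pseudogene Gm13929. The following coding stretches of the principal transcripts are examples of sequence that could not be counted. The first starts at coding base 21 of Tdh and is also present in Gm13929, and the other starts at coding base 325 of Phgdh and is present in 11 other genes:
Tdh: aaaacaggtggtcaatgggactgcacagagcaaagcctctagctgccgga
Phgdh: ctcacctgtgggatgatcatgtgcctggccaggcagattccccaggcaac
Gm13929 itself had at most 18 reads in a library, 0.699% of those of Tdh at most. The copies of Phgdh, of which 18 are in the count table, summed to at most 93 reads in a library. They reached as much as 92.3% of the reads of Phgdh itself, in a 4sU library. Phgdh had 35 to 84 reads in 4sU libraries and 617 to 1379 in total libraries. The share was 1.83% for Shmt2, 1.21% for Psat1 and 0 for the other 6 genes. Mthfd2 and Mthfd1l each overlap another annotated gene on the same strand, and reads in shared exons could not be given to either. The level of Phgdh is lowered by its copies by an unknown amount, and its values are therefore uncertain.

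In total RNA the 10 genes were neither all high nor all low in EpiLC. Tdh fell steeply, Gcat, Shmt1, Shmt2 and Psat1 were lower by smaller amounts, and Gldc, Mthfd1, Mthfd2, Mthfd1l and Phgdh missed the test. A call needed an adjusted p below 0.05 together with a log2 fold change beyond 1 in either direction. By that rule 1 of 10 fell, where 11.2% of the 14731 genes tested were called lower, and 0 rose, where 16.3% were called higher. By the adjusted p alone 5 were lower against 32.1% of all genes, and 0 were higher against 31.4%. That 0 depended on the scaling. By library totals Gldc (log2 0.22, adjusted p = 0.0294) and Mthfd1l (log2 0.26, adjusted p = 0.00862) passed the adjusted p as higher. For the rise, limma-voom had 1 gene (Mthfd1l) at an unadjusted p under 0.05, and edgeR and DESeq2 each had 0. The median log2 fold change was -0.17 for the 10 genes and 0.02 for all genes.

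In nascent RNA, 2 of 10 genes fell (Tdh and Gcat), against 13.5% of all genes, and 0 rose, against 11.9%. By the adjusted p alone the same 5 genes as in total RNA were lower, against 28.8% of all genes, and 0 were higher, against 23.7%. No gene was higher at an unadjusted p under 0.05 by limma-voom, edgeR or DESeq2, each with 0. The median nascent log2 fold change was -0.45 for the 10 genes and -0.086 for all genes. The total and nascent comparisons come from separate libraries of the same cell types. The study's methods describe labeled samples that were split after extraction, so these comparisons are not independent of each other.

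**Figure D1:**
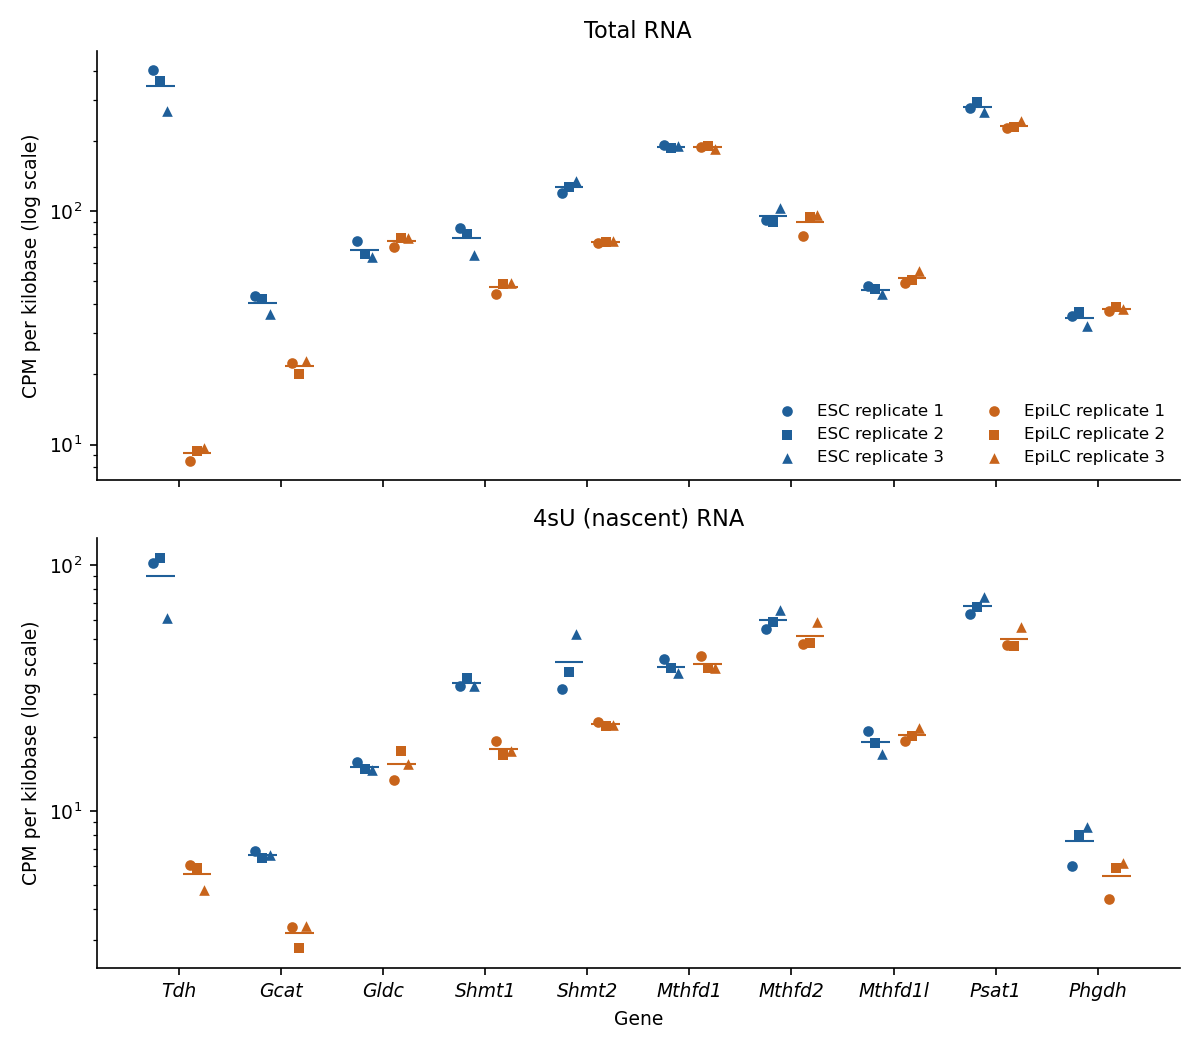
Level of each of the 10 genes in every library, in TMM-adjusted CPM per kilobase of merged exons on a log axis, for total RNA (upper panel) and 4sU RNA (lower panel). Points are libraries, with the shape giving the replicate, and horizontal lines are the means of 3. Tdh is the highest mean in ESCs and the lowest in EpiLC total RNA, and its ESC replicate 3 lies under its other ESC replicates in both panels.

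Tdh (ENSMUSG00000021953.14, chr14:63492347-63509092, minus strand, mm10) encodes the enzyme that starts threonine breakdown. Its total RNA was 755, 682 and 507 CPM in ESC replicates 1 to 3 and 16, 17.6 and 18.3 CPM in the EpiLC replicates. In nascent RNA it was 193, 201 and 114 CPM in ESCs and 11.4, 11.1 and 8.95 CPM in EpiLCs. The cell types did not overlap in either kind of RNA, and ESC replicate 3 was the lowest ESC library in both. Total Tdh RNA fell 37.0-fold (log2 -5.21, 95% confidence interval -5.67 to -4.74, adjusted p = 1.02e-10). Nascent Tdh RNA fell 15.6-fold (log2 -3.96, interval -4.72 to -3.20, adjusted p = 5.77e-07). Without both ESC replicate 3 libraries the fold was 41.5 in total and 18.8 in nascent RNA. In bulk RNA, fewer cells with the transcript and less transcript per cell cannot be told apart.

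Per kilobase, Tdh ranked 103 of 12312 protein-coding genes in ESC total RNA and 6344 in EpiLC. It took 18.6% ± 2.71 (SD, n = 3) of the summed CPM of the 10 genes in ESC total RNA and 0.704% ± 0.0271 in EpiLC. That sum was 3460 ± 191 CPM in ESCs and 2458 ± 71.0 in EpiLCs, and for the 9 genes without Tdh it was 2813 ± 64.9 and 2440 ± 69.8. Tdh made up more of the drop in the sum than the other 9 genes together. In nascent RNA Tdh took 17.1% ± 4.62 of the sum in ESCs and 1.58% ± 0.259 in EpiLCs.

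Gcat (ENSMUSG00000006378.13, chr15:79030874-79043558, plus strand) encodes the enzyme that follows TDH. Its total RNA was 167, 162 and 139 CPM in ESCs and 85.9, 77.4 and 88.3 CPM in EpiLCs, and its nascent RNA was 26.5, 24.8 and 25.6 CPM in ESCs and 13, 10.7 and 13.1 CPM in EpiLCs. The cell types were apart in both. Nascent Gcat RNA fell 2.10-fold (log2 -1.07, interval -1.45 to -0.70, adjusted p = 0.000156), and this call was lost without EpiLC 4sU replicate 2 (log2 -0.95). Total Gcat RNA was 1.87-fold lower (log2 -0.90, interval -1.08 to -0.72, adjusted p = 3.26e-07), which passed the adjusted p and not the fold. Without both ESC replicate 3 libraries the Gcat fold was 1.98 in total and 2.14 in nascent RNA. Within each library, Gcat was set against Tdh per kilobase of exon. The log2 ratio of Gcat to Tdh was -3.21, -3.11 and -2.90 in ESC total libraries and 1.39, 1.10 and 1.24 in EpiLC, so the order of the pair was turned around. In nascent RNA it was -3.89, -4.05 and -3.19 in ESCs and -0.84, -1.09 and -0.48 in EpiLCs by merged exon length. By the length of principal transcripts the means differed by less than either SD in EpiLC nascent RNA, with Tdh at 5.56 ± 0.703 and Gcat at 5.18 ± 0.591 CPM per kilobase (SD, n = 3).

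Promoter windows were read from RefSeq (GRCm38.p6), 250 bases before to 50 after each start, for 9 of the 10 genes in 10 windows; Tdh had no entry. They were searched on both strands for the E-box CACGTG, which USF and MYC family factors bind, and for the ATF4 element TGATGNAAN. The E-box was present in 1 of the 10 windows, that of Gcat, and in 7.15% of all 32851 windows. The ATF4 element was present in 0 of the 10 and in 3.95% of all windows. The Gcat sequence is shown since Gcat is the called gene with a window, with the E-box in capitals, plus strand, chr15:79030846-79030911:
Gcat: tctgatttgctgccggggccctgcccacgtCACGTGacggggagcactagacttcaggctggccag
The E-box begins 2 bases after the annotated start of the gene.

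Gldc (ENSMUSG00000024827.9, chr19:30098449-30175418, minus strand), the decarboxylase of the glycine cleavage system, was 239 to 278 CPM in ESC total libraries and 262 to 287 in EpiLC. Its nascent RNA was 55.3 to 59.2 and 50.4 to 65.8 CPM. The cell types overlapped in both kinds of RNA, and the log2 fold change was 0.13 (interval -0.047 to 0.31, adjusted p = 0.183) in total and 0.034 (interval -0.22 to 0.29, adjusted p = 0.829) in nascent RNA. These intervals lie inside a 1.5-fold change in either direction. By library totals alone the total log2 fold change of Gldc was 0.22, with an adjusted p of 0.0294. Set against Gcat in the same library, Gldc went from a log2 ratio of 0.74 ± 0.089 (SD, n = 3) in ESCs to 1.77 ± 0.14 in EpiLC total RNA, and from 1.18 ± 0.031 to 2.28 ± 0.35 in nascent RNA.

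Both serine hydroxymethyltransferases were lower in EpiLCs. Shmt2 (ENSMUSG00000025403.5, chr10:127517123-127522444, minus strand), the mitochondrial enzyme, was 276, 292 and 310 CPM in ESC total libraries and 169, 169 and 172 CPM in EpiLC. Its nascent RNA was 72.5, 84.7 and 122 CPM in ESCs and 53.0, 51.1 and 51.3 CPM in EpiLCs. ESC replicate 3 was the highest ESC library for Shmt2 and the lowest for Tdh. Shmt2 was 1.72-fold lower in total RNA (log2 -0.78, SE 0.11, adjusted p = 2.62e-05) and 1.73-fold lower in nascent RNA (log2 -0.79, SE 0.15, adjusted p = 0.00059), past the adjusted p and not the fold. Without both ESC replicate 3 libraries the nascent fold was 1.54 and the total fold 1.68.

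Shmt1 (ENSMUSG00000020534.14, chr11:60788104-60811265, minus strand), the cytosolic enzyme, was 243, 229 and 185 CPM in ESC total libraries and 126, 139 and 141 CPM in EpiLC. Its nascent RNA was 92.5, 99.3 and 91.8 CPM in ESCs and 54.9, 48.4 and 50.4 CPM in EpiLCs. The cell types were apart in both. It was 1.61-fold lower in total RNA (log2 -0.69, SE 0.095, adjusted p = 1.65e-05) and 1.85-fold lower in nascent RNA (log2 -0.89, SE 0.13, adjusted p = 4.24e-05). Without both ESC replicate 3 libraries the Shmt1 fold was 1.75 in total and 1.91 in nascent RNA. The log2 ratio of Shmt2 to Shmt1 was 0.74 ± 0.29 in ESC and 0.64 ± 0.077 in EpiLC total RNA, and the ranges overlapped, so the difference of -0.098 was within the spread of the replicates.

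The MTHFD genes showed no change past the test. Mthfd1 (ENSMUSG00000021048.7, chr12:76255298-76319803, plus strand), the cytosolic enzyme with several activities in one chain, was 603 to 619 CPM in ESC total libraries and 596 to 616 in EpiLC, and 118 to 135 and 124 to 138 CPM in nascent RNA. Its log2 fold change was -0.0094 (interval -0.14 to 0.13) in total and 0.037 (interval -0.13 to 0.21) in nascent RNA, the narrowest intervals among the 10 genes. Mthfd2 (ENSMUSG00000005667.8, chr6:83305691-83317606, minus strand), the mitochondrial dehydrogenase and cyclohydrolase, was 188 to 215 CPM in ESC total libraries and 163 to 200 in EpiLC, with overlap. Its log2 fold change was -0.084 (interval -0.29 to 0.13, adjusted p = 0.467) in total and -0.22 (interval -0.47 to 0.029, adjusted p = 0.128) in nascent RNA. Mthfd1l (ENSMUSG00000040675.17, chr10:3973118-4167081, plus strand), which releases formate in mitochondria, was 188 to 203 CPM in ESC total libraries and 210 to 237 in EpiLC. Those ranges were apart, but the log2 fold change of 0.17 (interval 0.0042 to 0.34) had an adjusted p of 0.0684. It passed the adjusted p when libraries were scaled by their totals alone (log2 0.26, adjusted p = 0.00862). It also passed with sample quality weights (adjusted p = 0.0175) and in the 6 total libraries alone (adjusted p = 0.0188). Without ESC 4sU replicate 1 or 3 the adjusted p was 0.0445 and 0.0387. Its adjusted p ranged from 0.00862 to 0.363 over the alternatives. Its nascent RNA was 73.0 to 90.6 CPM in ESCs and 82.4 to 92.7 in EpiLCs.

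The serine synthesis enzymes were measured at very different levels. Of the 50-base stretches of Phgdh 63.1% also occur elsewhere, against 1.21% for Psat1. The reads dropped for this lower the level of Phgdh and raise the ratio of Psat1 to Phgdh. Psat1 (ENSMUSG00000024640.9, chr19:15904678-15925059, minus strand), the aminotransferase, was 809, 856 and 784 CPM in ESC total libraries and 665, 673 and 711 CPM in EpiLC. In nascent RNA it was 186, 199 and 217 CPM in ESCs and 139, 138 and 165 CPM in EpiLCs. The cell types were apart in both, and Psat1 was 1.20-fold lower in total (log2 -0.26, interval -0.42 to -0.10, adjusted p = 0.00682) and 1.36-fold lower in nascent RNA (log2 -0.45, interval -0.64 to -0.25, adjusted p = 0.000867). Its folds were 1.23 and 1.34 without both ESC replicate 3 libraries. Phgdh (ENSMUSG00000053398.11, chr3:98313170-98339990, minus strand), the dehydrogenase before it, was 67.3, 69.8 and 61.0 CPM in ESC total libraries and 71.0, 73.8 and 72.0 CPM in EpiLC. In nascent RNA it was 11.3, 15.1 and 16.4 CPM in ESCs and 8.29, 11.1 and 11.6 CPM in EpiLCs, from 35 to 84 reads per library. Phgdh had a log2 fold change of 0.13 (interval -0.060 to 0.32, adjusted p = 0.217) in total RNA, where the ranges were apart. Over the alternatives that adjusted p ranged from 0.0383 to 0.706. In nascent RNA the log2 fold change was -0.45 (interval -0.88 to -0.020, adjusted p = 0.0735), with overlap, and edgeR gave an adjusted p of 0.0291. The log2 ratio of Psat1 to Phgdh was 2.95, 2.98 and 3.05 in ESC and 2.59, 2.56 and 2.67 in EpiLC total RNA. In nascent RNA it was 3.19 ± 0.18 and 3.21 ± 0.22.

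**Figure D2:**
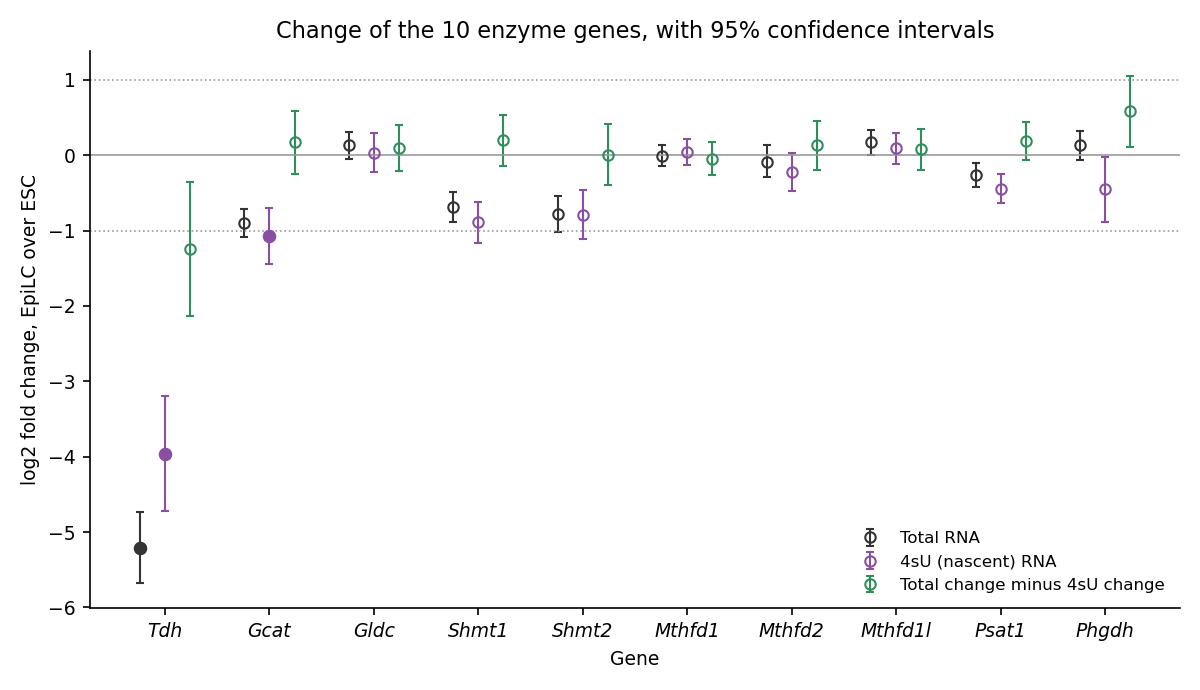
Log2 fold change of each gene, EpiLC over ESC, in total RNA, in 4sU RNA and as the total change minus the 4sU change, from limma-voom. Points are estimates with 95% confidence intervals, filled points passed the adjusted p and the fold threshold, and dotted lines mark log2 of -1 and 1. Tdh lies far below the other 9 genes in total and 4sU RNA.

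Pairs of related or consecutive enzymes, 6 in all, were set against each other within a library, each in total and nascent RNA, which gave 12 comparisons by a two-sided exact permutation test. With 3 libraries against 3 the smallest p possible is 0.1, so none could pass 0.05. That smallest p (0.1, 0.2 after Benjamini-Hochberg adjustment over the 12) was reached by Gcat/Tdh and Gldc/Gcat in both kinds of RNA and by Psat1/Phgdh and Mthfd1l/Mthfd1 in total RNA. The shift was 4.31 for Gcat/Tdh, 1.03 for Gldc/Gcat, -0.39 for Psat1/Phgdh and 0.18 for Mthfd1l/Mthfd1 on the log2 scale in total RNA. For Mthfd2/Mthfd1 the values overlapped, with a shift of -0.080 in total and -0.26 in nascent RNA (exact permutation p = 0.6 and 0.2). The ratios use the same libraries as the fold changes above.

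**Figure D3:**
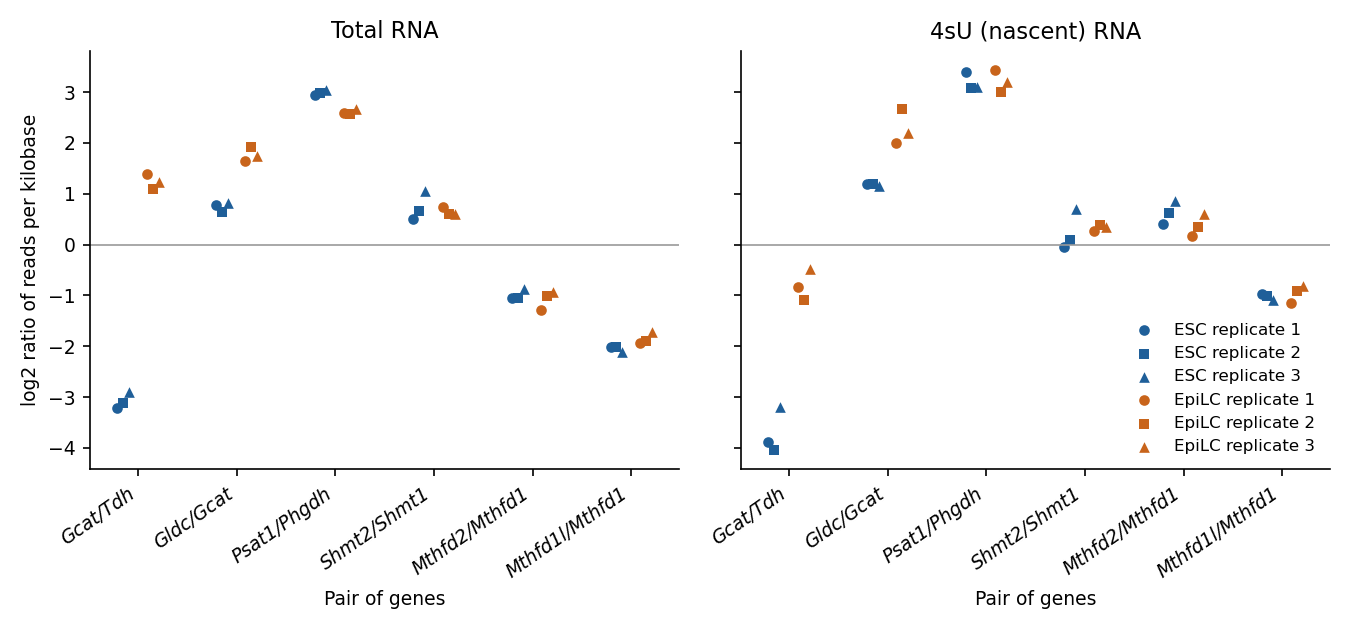
Log2 ratio of reads per kilobase of exon for 6 pairs of genes in every library, in total RNA (left) and 4sU RNA (right). Points are libraries, with color giving the cell type and shape the replicate. Gcat/Tdh lies at or below -2.90 in ESC total libraries and at or above 1.10 in EpiLC.

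The order of the 10 genes by level per kilobase of merged exons also differed between cell types. In ESC total RNA Tdh (344 ± 67.7 CPM per kilobase) came first, overlapping Psat1 (278 ± 12.4), and Mthfd1 (189 ± 2.70), Shmt2 (127 ± 7.27) and Mthfd2 (95.1 ± 7.09) followed without overlap. Shmt1 (76.6 ± 10.7) and Gldc (67.9 ± 5.51) overlapped, then came Mthfd1l (46.0 ± 1.79), and Gcat (40.5 ± 3.83) and Phgdh (34.9 ± 2.40) overlapped. In EpiLC total RNA Psat1 (233 ± 8.41) came first, then Mthfd1 (188 ± 3.30) and Mthfd2 (89.5 ± 9.93), without overlap. Gldc (74.3 ± 3.81) and Shmt2 (73.7 ± 0.634) overlapped, as did Mthfd1l (51.9 ± 3.24) and Shmt1 (47.4 ± 2.78). Phgdh (38.2 ± 0.753), Gcat (21.8 ± 1.49) and Tdh (9.20 ± 0.614) closed the order without overlap. The reads dropped for its copies lower Phgdh, so its place is uncertain in these orders and in those of nascent RNA. The counted model of Gcat spans 3851 exonic bases where its principal transcript has 2370, and by the length of principal transcripts Gcat was 65.9 ± 6.22 in ESC total RNA, above Mthfd1l (53.3 ± 2.08).

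In nascent RNA the order was another. In ESCs Tdh (90.0 ± 25.3 CPM per kilobase) overlapped Psat1 (68.2 ± 5.37), which overlapped Mthfd2 (59.7 ± 5.29), and Gcat was last (6.66 ± 0.220), overlapping Phgdh (7.53 ± 1.39). By principal transcripts Gcat was 10.8 ± 0.357 there, above Phgdh without overlap. In EpiLCs Mthfd2 (51.5 ± 6.10) and Psat1 (50.2 ± 5.15) overlapped at the top, and Tdh (5.56 ± 0.703), Phgdh (5.46 ± 0.946) and Gcat (3.19 ± 0.363) were at the bottom, the first pair overlapping. By principal transcripts Gcat was 5.18 ± 0.591 in EpiLCs and overlapped Phgdh. Mthfd2 thus stood higher in nascent than in total RNA relative to Mthfd1. The log2 ratio of Mthfd2 to Mthfd1 was -0.99 ± 0.098 in ESC total RNA and 0.63 ± 0.22 in ESC nascent RNA.

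Relative mRNA stability was taken as log2 of total over nascent CPM, with libraries of the same cell type and replicate number set against each other. The study's methods describe labeled samples split after extraction, but no label ties a number to 1 extract. It has no absolute scale, since each library was scaled to its own content. All 10 genes lay above the median of the 14731 genes in both cell types, which was 0.030 in ESCs and 0.15 in EpiLCs. Gcat was the highest in ESCs (2.66, 2.71 and 2.44 in replicates 1 to 3, percentile 98.5 of all genes), and Phgdh (3.10, 2.74 and 2.63) and Gcat (2.72, 2.86 and 2.75) shared percentile 99.2 in EpiLCs. Mthfd1 was at percentile 96.9 in each cell type, and Gldc, Psat1 and Shmt2 were at 95.8, 94.8 and 90.6 in ESCs and 97.0, 96.8 and 91.1 in EpiLCs. Shmt1 and Mthfd1l were at 81.0 and 82.4 in ESCs and 85.4 and 84.2 in EpiLCs. Mthfd2 was the lowest in ESCs (0.74, 0.62 and 0.66, percentile 67.4) and was at percentile 69.7 in EpiLCs.

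Tdh had the widest gap between cell types in this order. Its log2 of total over nascent RNA was 1.97, 1.76 and 2.15 in ESCs (percentile 93.9) and 0.50, 0.67 and 1.03 in EpiLCs (percentile 66.8), with no overlap. By the test of the difference itself, the interaction of cell type and kind of RNA, the shift was -1.24 (interval -2.14 to -0.35) with an adjusted p of 0.0964, so it was not called by limma-voom. Among the alternatives it was called by edgeR (adjusted p = 0.0412), by DESeq2 (adjusted p = 0.00128), with sample quality weights (adjusted p = 0.00265), without ESC total replicate 3 (log2 -1.40, adjusted p = 0.0148) and without both ESC replicate 3 libraries (log2 -1.14, adjusted p = 0.000236). The shift was also called with a block for the replicate number (adjusted p = 0.0135) and with one for cell type and number (adjusted p = 0.00343). Those blocks assume that the numbers pair libraries, which no label states. Without ESC 4sU replicate 3 the shift was -0.99 (adjusted p = 0.0998). Over all alternatives the adjusted p ranged from 0.000236 to 0.249 and the shift from -1.40 to -0.99. EpiLC nascent Tdh rested on 30 to 52 reads per library.

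For mRNA stability 0 of 10 genes were called in either direction, where 1.24% of all genes were called higher and 0.305% lower. That split moved with the scaling: 182 genes were called higher and 45 lower, against 132 and 66 by median-of-ratios scaling and 254 and 28 by library totals. At an unadjusted p under 0.05 limma-voom had 1 gene higher (Phgdh) and 1 lower (Tdh), as did edgeR and DESeq2, which each called 1 of them, Tdh. Phgdh had a shift of 0.58 (interval 0.11 to 1.05, adjusted p = 0.134) with no overlap of the replicate values (2.57, 2.21 and 1.90 in ESCs). For the other 8 genes the shift ran from -0.047 (Mthfd1) to 0.20 (Shmt1), and the median was 0.12 for the 10 genes and 0.11 for all genes.

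**Figure D4:**
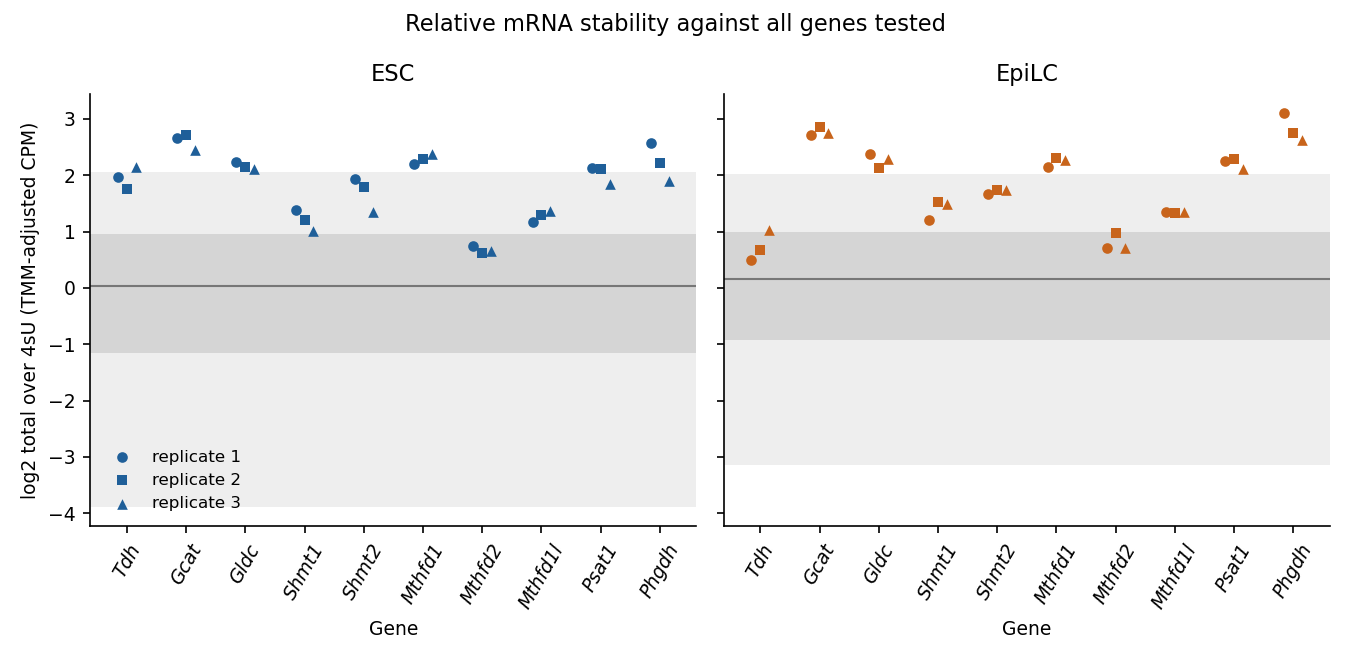
Relative mRNA stability, log2 of total over 4sU CPM, of the 10 genes in ESCs (left) and EpiLCs (right). Points are replicates, the line is the median of all genes tested, and the dark and light bands hold the middle 50% and 90% of them. Tdh lies near the upper edge of the light band in ESCs, at 1.76 to 2.15, and at 0.50 to 1.03 in EpiLCs.

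Around these 10 genes stand the other enzymes and carriers of the same pathways, a list of 54 genes in 5 groups, of which 44 passed the filter and 10 had at most 24 reads in a library. In total RNA 9 of the 44 fell, where 11.2% of all genes were called lower, and 2 rose, where 16.3% were called higher. In nascent RNA 10 fell, against 13.5% of all genes, and 1 rose, against 11.9%. The group counts that follow can be read against the same shares. The median log2 fold change was -0.21 in total and -0.29 in nascent RNA, beside 0.02 and -0.086 for all genes. In total RNA 27 of the 44 passed the adjusted p alone, 20 lower (32.1% of all genes) and 7 higher (31.4% of all genes). Among the genes called lower, Bhmt2 and Dmgdh passed the filter on low counts through ESC libraries alone. Sfxn3, also called lower, was 6.52 to 15.4 CPM in ESC total libraries and 2.19 to 3.81 in EpiLC. Its EpiLC 4sU libraries held at most 1.89 CPM, so Sfxn3 would not have passed through EpiLC libraries alone. Mthfd2l, called higher, passed the filter through EpiLC libraries alone. The filter thus favored the direction of these genes.

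The glycine cleavage system was lower in part. Amt, its aminomethyltransferase, fell in total RNA from 229 to 231 CPM in ESCs to 85.7 to 97.6 in EpiLCs (log2 -1.32, SE 0.075, adjusted p = 2.05e-09) and fell in nascent RNA (log2 -1.05, SE 0.13, adjusted p = 1.28e-05). Gcsh, its lipoyl carrier, was 1.31-fold lower in total RNA (adjusted p = 0.00103), short of the fold threshold, beside the overlapping values of Gldc above. Dld, the other listed gene of this system, missed the test and is named to complete it. Its log2 fold change was -0.11 in total (adjusted p = 0.226) and 0.21 in nascent RNA (adjusted p = 0.0952). Psph, the phosphatase that finishes serine synthesis after PSAT1, fell in nascent RNA (log2 -1.05, SE 0.16, adjusted p = 0.000104) and was 1.68-fold lower in total RNA (adjusted p = 6.72e-07). Of the 13 genes of threonine, serine and glycine metabolism, 8 were tested. In total RNA 2 fell, Amt and the dimethylglycine dehydrogenase Dmgdh.

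Folate interconversion held genes that moved in opposite directions. Mthfd2l, the mitochondrial paralog of Mthfd2, rose 5.40-fold in total RNA (log2 2.43, SE 0.29, adjusted p = 4.45e-06) from 0.641 to 1.28 CPM in ESCs to 4.10 to 4.67 in EpiLCs, which stayed far below the 163 to 200 CPM of Mthfd2 there. It rose in nascent RNA as well (log2 1.48, SE 0.36, adjusted p = 0.00314), on 6 to 25 reads per library. Aldh1l1, which oxidizes formyl-tetrahydrofolate in the cytosol, fell 9.69-fold in total RNA, from 30.9 to 36.7 CPM to 3.14 to 3.70 (adjusted p = 7.56e-10), and 8.08-fold in nascent RNA (adjusted p = 1.28e-05). Of the 9 genes of this group tested, 1 fell and 1 rose in total RNA (all genes 11.2% and 16.3%), and 3 fell and 1 rose in nascent RNA (13.5% and 11.9%).

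In the methionine cycle and transsulfuration group 3 of 10 tested genes fell in total RNA, against 11.2% of all genes. Of these, Bhmt2 passed the filter only through ESC total libraries, where it was 3.54 to 8.5 CPM. Cth, which splits cystathionine to cysteine, fell 2.85-fold, from 361 to 492 CPM in ESCs to 136 to 154 in EpiLCs (log2 -1.51, SE 0.11, adjusted p = 3.67e-08), and 2.65-fold in nascent RNA (adjusted p = 3.81e-06). Cbs, the enzyme before it, fell 2.32-fold in total RNA (adjusted p = 1.33e-05), and its nascent log2 fold change of -0.75 had an adjusted p of 0.19. Mtr, the methionine synthase that takes its methyl group from folate, fell 2.07-fold in nascent RNA (adjusted p = 6.29e-05) and was 1.78-fold lower in total RNA (adjusted p = 2.26e-05). By the adjusted p alone 5 of the 10 (Bhmt2, Cbs, Cth, Mtr and Mtrr) were lower in total RNA, against 32.1% of all genes. In the other direction 3 genes (Ahcy, Ahcyl1 and Mat2a) were higher by that rule, against 31.4% of all genes.

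The 6 purine synthesis genes, a pathway that uses formyl-tetrahydrofolate, stayed within the fold threshold, with log2 fold changes from -0.58 (Paics) to 0.49 (Adsl) in total RNA and from -0.27 (Paics) to 0.53 (Pfas) in nascent RNA. By the adjusted p alone, total RNA had 2 lower (Paics and Ppat, all genes 32.1%) and 1 higher (Adsl, all genes 31.4%). Nascent RNA had 1 lower (Paics, all genes 28.8%) and 3 higher (Adsl, Gart and Pfas, all genes 23.7%). For mRNA stability 3 were lower (Ppat, Gart and Pfas, log2 -0.42, -0.42 and -0.55) and 0 higher, where 1.88% and 2.72% of all genes were. With the fold threshold 0 were called, and with 1 library left out their adjusted p rose as far as 0.101, 0.116 and 0.128. Of the 11 transporters, 3 fell and 1 rose in total RNA, where 11.2% and 16.3% of all genes did. Folr1, a folate receptor, fell 2.15-fold (adjusted p = 4.06e-07), and Slc1a5, a carrier of neutral amino acids, fell 2.06-fold (adjusted p = 1.11e-06). With 1 library left out the Slc1a5 call held in 10 of 12 fits. The gene that rose was Folr2 (log2 1.0, adjusted p = 0.0416). It was 0.395 to 0.708 CPM in ESC and 0.673 to 1.52 in EpiLC total libraries, from 4 to 16 reads each. Those levels lie under the filter of 3 CPM, which Folr2 passed through 4sU libraries, at 2.67 to 4.50 CPM. Its cell types overlapped, and its call held in 4 of 12 such fits. Dmgdh, Bhmt2, Sfxn3 and Folr2, the other called genes, had mean levels under 10 CPM and are named because they were called.

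**Figure D5:**
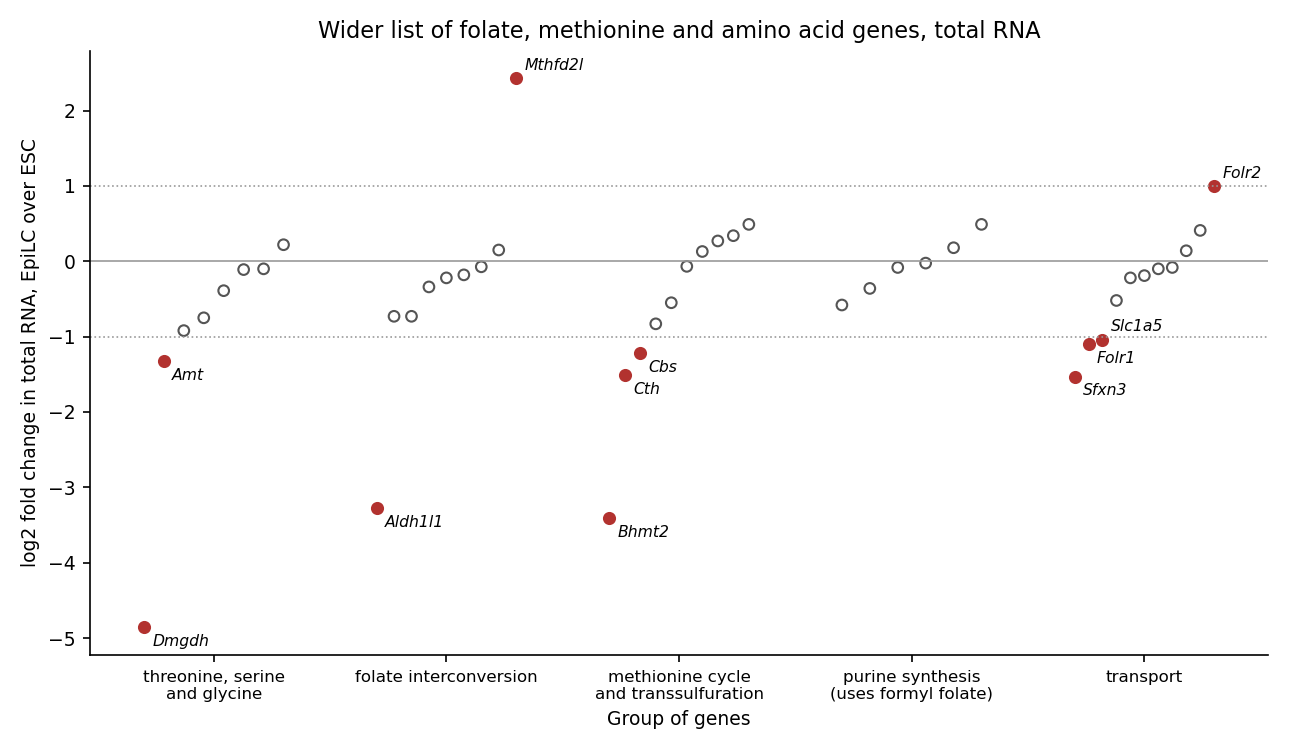
Log2 fold change in total RNA, EpiLC over ESC, of the 44 tested genes of the wider list, by group. Red points passed the adjusted p and the fold threshold and are named, open points did not, and dotted lines mark log2 of -1 and 1. In total RNA 9 genes lie below -1 and were called, and 2, Mthfd2l and Folr2, were called higher.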

How the data were processed

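Raw read counts per gene were deposited for 12 libraries. The authors trimmed reads with cutadapt 1.14, aligned them to mm10 with STAR 2.5.3a, kept unique alignments, which lowers the counts of genes with close copies, and counted reverse-stranded reads over GENCODE M14 exons with featureCounts 1.5.3, rRNA annotations removed. The 92 spike-in entries had 0 reads. Symbols and gene models came from GENCODE M21 (99.6% of IDs matched).

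A filter of 3 CPM in 3 or more libraries left 14731 genes. After the study's methods, limma-voom (limma 3.58.1, R 4.3.3) was fitted to all 12 libraries as 4 group means, with TMM factors from edgeR 4.0.16 and Benjamini-Hochberg adjustment over all genes kept. Every adjusted p is from this fit unless another tool is named. CPM carry the TMM factors, and levels per kilobase were divided by the deposited merged exon length. The fit was tested on simulated counts with 200 changed genes. Alternatives were DESeq2 1.42.0, edgeR's quasi-likelihood test, other scalings and filters, quality weights, replicate blocks and libraries left out. The study calls its sequencing replicates biological. What was kept separate between them is not given in the sources used here. Read totals cover counting error only, as reads had no molecular identifiers.

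The 10 genes, the 54-gene list, the marker lists and the tests were chosen with earlier results of these data known. Named from the 54 were genes called in a contrast whose mean over the 12 libraries reached 10 CPM, and a few fixed by name (Mthfd2l, Psph, Amt and Gcsh); an item withheld from the text is not reported here. Levels by principal transcript, and the adjusted p alone without both ESC replicate 3 libraries, were chosen after seeing the data. Python 3.11.15, numpy 2.4.6, pandas 2.3.3 and matplotlib 3.10.9 were used.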

Additional observations from a re-analysis of the deposited data

Results flagged for a closer look

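The total over nascent ratio of Slc46a1, the proton-coupled folate transporter, differed between the cell types by the test of the interaction. Its log2 shift was 1.21 in EpiLC relative to ESC (interval 0.55 to 1.87, limma-voom adjusted p = 0.0402). Nascent Slc46a1 RNA was 6.47 to 6.99 CPM in ESCs and 1.66 to 2.39 in EpiLCs, from 7 to 9 reads per EpiLC library, and total RNA was 8.70 to 10.3 and 6.50 to 7.09 CPM. The call held in 2 of the 12 fits that each left out a library, with adjusted p from 0.0196 to 0.128.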

How the results depend on the processing

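The number of the 10 genes called was 1 in total RNA and 2 in nascent RNA under each alternative that kept the fold threshold, except for 1 library left out below. By the adjusted p alone it was 5 in each, and also 5 in each without both ESC replicate 3 libraries, an alternative chosen after seeing the data. Those counts used TMM scaling. By library totals Gldc and Mthfd1l also passed the adjusted p, as higher in total RNA. The stability count was 0, and it was 1, Tdh, by DESeq2, by edgeR, with quality weights, without both ESC replicate 3 libraries, and with a block for the replicate number (adjusted p = 0.0135) or for the cell type and number (adjusted p = 0.00343). With the replicate block the counts were 1 in total RNA, 2 in nascent RNA, 1 in stability and 11 in the wider list. The main fit did not take the numbers to pair libraries. The stability values per replicate, and their overlap, did set same-numbered libraries against each other. Deviations of same-numbered libraries correlated at 0.213 to 0.462 between ESC 4sU and total RNA, at 0.023 to 0.0916 in EpiLCs, and at -0.128 to -0.00589 across cell types. Leaving out 1 library at a time gave 1 call in total RNA, 1 to 2 in nascent RNA (1 without EpiLC 4sU replicate 2), 0 to 1 in stability (1 without ESC total replicate 3) and 9 to 11 in the wider list. The wider list had 11 calls, 6 with a filter of 10 CPM in 3 libraries, which tests fewer genes, and 27 by the adjusted p alone. The causes of the other changes were not tested.

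Values near 0 that missed the test changed sign. By library totals, Mthfd1 was 0.078 in total RNA and 0.019 in stability, and Mthfd2 was 0.0048 in total RNA. In the 6 total libraries alone Mthfd1 was 0.028. In stability, Shmt2 was -0.076 by median-of-ratios scaling, -0.047 by TMM within each kind of RNA, -0.091 with no filter, -0.049 with the 10 CPM filter, -0.034 by DESeq2 and -0.018 with quality weights, Mthfd1l was -0.0043 by median-of-ratios scaling, -0.028 with no filter and -0.00082 by DESeq2, and Gldc was -0.013 with no filter. Without both ESC replicate 3 libraries Gldc was -0.0047, Mthfd1 -0.025 and Mthfd1l -0.0031 in nascent RNA, and Shmt2 was -0.13 and Mthfd1 0.0095 in stability. With 1 library left out, nascent Gldc ran from -0.060 to 0.15 and stability Gldc from -0.0097 to 0.20, stability Shmt2 from -0.17 to 0.18, Mthfd1 from -0.024 to 0.012 in total, -0.020 to 0.073 in nascent RNA and -0.082 to 0.0057 in stability, and total Mthfd2 from -0.13 to 0.014. Among ratios, Psat1/Phgdh ran from -0.095 to 0.12 in nascent RNA, Shmt2/Shmt1 from -0.22 to 0.062 in total and -0.069 to 0.31 in nascent RNA, Mthfd2/Mthfd1 from -0.15 to 0.021 in total RNA, and Mthfd1l/Mthfd1 from -0.010 to 0.15 in nascent RNA. Tdh, Gcat, Shmt1, Shmt2 and Psat1 stayed lower in total and nascent RNA in all 24 alternatives, with a highest adjusted p of 0.044 (Psat1, total RNA). No median over all genes moved by more than 0.09 with the scaling. Depth limits the 4sU values of Phgdh, Gcat and EpiLC Tdh most.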
